A study of Mus musculus with 4 samples.

Results

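The 10 genes described here encode Sox transcription factors, the family of DNA-binding proteins related to the testis-determining factor Sry. They were the rows of the deposited gene table with the symbols Sox1, Sox2, Sox3, Sox4, Sox5, Sox6, Sox8, Sox9, Sox11 and Sox21 on chromosomes 1 to 19 or X, 10 of 55599 entries. The RNA was that of neurospheres at passage 3, floating clusters of neural stem and progenitor cells. They were grown from the cortex of embryonic day 12.5 mice of the C57BL/6 strain. There were 2 libraries of wild-type cells (WT) and 2 of cells with the genotype LncBAR-KO (KO), a knockout of the long noncoding RNA LncBAR. No treatment was named for either genotype. How the allele was made is not in the labels, and neither is whether the replicates were different embryos or different dishes. The p-values therefore set the difference between genotypes only against the scatter of libraries within a genotype, part of which may be technical.

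Every Sox protein binds the minor groove of DNA through its HMG box and bends it, and most need a partner protein to act on a target gene. The family is divided into subgroups. SoxB1 proteins (Sox1, Sox2, Sox3) hold neural progenitors in an undifferentiated state, and the SoxB2 protein Sox21 counters them at shared targets. SoxC proteins (Sox4, Sox11) act in neuronal differentiation and progenitor survival. SoxD proteins (Sox5, Sox6) lack an activation domain of their own and set the timing of neuron and glia production, and SoxE proteins (Sox8, Sox9, Sox10) drive the change to glia.

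Shown is the stretch of 90 coding bases of Sox2 that best matched all 10 genes, by identical bases summed over the genes. It lies near the start of the HMG box and was read from the GENCODE M21 transcripts (GRCm38, the same assembly as mm10), aligned without gaps to Sox2. Capitals mark bases that differ from Sox2.
Sox2: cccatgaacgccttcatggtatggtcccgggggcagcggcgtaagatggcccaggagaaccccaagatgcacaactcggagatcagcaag
Sox1: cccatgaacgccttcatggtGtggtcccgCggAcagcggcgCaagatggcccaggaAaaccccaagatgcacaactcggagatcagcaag
Sox3: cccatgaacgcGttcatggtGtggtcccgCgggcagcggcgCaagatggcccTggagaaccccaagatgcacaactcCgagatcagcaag
Sox21: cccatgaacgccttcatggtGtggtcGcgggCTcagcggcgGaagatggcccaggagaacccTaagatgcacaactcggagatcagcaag
Sox4: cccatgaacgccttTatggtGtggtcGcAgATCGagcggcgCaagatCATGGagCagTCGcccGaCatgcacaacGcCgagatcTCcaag
Sox11: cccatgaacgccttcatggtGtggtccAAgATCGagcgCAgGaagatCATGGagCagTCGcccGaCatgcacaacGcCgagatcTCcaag
Sox9: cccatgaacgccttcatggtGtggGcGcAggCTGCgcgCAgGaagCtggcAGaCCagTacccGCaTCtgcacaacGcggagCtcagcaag
Sox8: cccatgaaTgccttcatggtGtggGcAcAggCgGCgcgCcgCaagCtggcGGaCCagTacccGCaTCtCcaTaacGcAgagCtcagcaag
Sox5: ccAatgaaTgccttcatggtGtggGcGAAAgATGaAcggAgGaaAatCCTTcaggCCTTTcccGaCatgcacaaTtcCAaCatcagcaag
Sox6: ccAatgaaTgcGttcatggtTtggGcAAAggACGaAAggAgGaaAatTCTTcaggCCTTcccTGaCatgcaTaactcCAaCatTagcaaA

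Sox1 differed from Sox2 at 5 of the 90 bases, and Sox3 and Sox21 at 6 each. Sox9 differed at 23, Sox4 at 24, Sox8 and Sox11 at 25, Sox5 at 30 and Sox6 at 33. Within subgroups, Sox4 and Sox11 shared 84 of the 90 bases, Sox8 and Sox9 81, and Sox5 and Sox6 77. The longest run of identical bases between the coding sequences of any 2 of the 10 genes was 48, between Sox4 and Sox11, followed by 45 between Sox1 and Sox3. No stretch of 50 bases was shared between transcripts of any 2 members, and the reads were 150 bases long, so a read that matches 1 member over its whole length fits no other member equally well. The sources used here do not give how reads with several matches were treated.

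These stretches lie within single coding exons. In the only exon of their genes they are at chr3:34650551-34650640 for Sox2 and chr8:12396520-12396609 for Sox1 on the plus strand, and at chrX:60892903-60892992 (Sox3), chr14:118235516-118235605 (Sox21), chr13:28952749-28952838 (Sox4) and chr12:27342166-27342255 (Sox11) on the minus strand. For Sox9 the stretch is at chr11:112782906-112782995 on the plus strand and for Sox8 at chr17:25570130-25570219 on the minus strand, each in exon 1 of 3. For Sox5 it is at chr6:143841181-143841270 in exon 13 of 15 and for Sox6 at chr7:115489670-115489759 in exon 15 of 17, both on the minus strand. The SoxB and SoxC members are thus single-exon genes, whereas Sox5 and Sox6 extend over 953553 and 567925 bases of the genome.

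The 4 libraries held 17244057 to 18280445 counts. All 10 radial glia markers passed a mean of 1 FPKM, from Fabp7 at 1340 to 1614 FPKM and Vim at 812 to 858 FPKM down to Hes5, Prom1 and Pax6 at means of 5.52, 4.19 and 4.10 FPKM (deposited values of fragments per exon length, scaled to library size). The oligodendrocyte lineage factors Olig1 and Olig2 were at 520 to 576 and 164 to 178 FPKM. Of the markers of dorsal forebrain, Lhx2 and Emx2 were at 10.5 to 16.3 FPKM, but Emx1, which marks the embryonic cortex, was at 0.0254 to 0.152 FPKM, and the cortical intermediate progenitor gene Eomes at 0.0401 to 0.124 FPKM. Summed markers of microglia, endothelium, mural cells, neural crest and blood stayed below 0.734 FPKM per list and library. In both WT libraries Xist was high (36766 and 31563 counts) and 4 Y-linked genes summed to 0, while in KO Xist had 7 and 4 counts and the Y-linked genes 3962 and 4449. Genotype and this sex-chromosome difference therefore cannot be told apart in any result below. The level of LncBAR was not analysed here.

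All 10 genes were expressed in all 4 libraries. Sox4 had a mean of 204 ± 11.1 FPKM and Sox2 of 203 ± 12.6 FPKM (SD over the 4 libraries, n = 4), ranks 3 and 4 among 1538 genes that the deposited table assigns to a transcription factor family. They were followed by Sox3 (83.4 ± 3.49 FPKM), Sox21 (78.5 ± 3.39 FPKM), Sox11 (38.6 ± 2.28 FPKM), Sox9 (35.2 ± 5.15 FPKM) and Sox8 (28.5 ± 3.86 FPKM). The lowest were Sox1 (14.5 ± 0.627 FPKM), Sox6 (9.95 ± 1.07 FPKM) and Sox5 (6.22 ± 0.187 FPKM). Neighbours in this order whose library ranges overlapped were Sox4 and Sox2, Sox3 and Sox21, Sox11 and Sox9, and Sox9 and Sox8. Sox4 was above Sox2 in 2 of 4 libraries only, and Sox3 was above Sox21 in all 4 by a factor of 1.04 to 1.10. FPKM divides by the length of all annotated exons together, which for Sox5 (14376 bases) and Sox6 (14832 bases) is far longer than their longest single transcript (7243 and 8668 bases). With that transcript length, chosen after the data were seen, Sox6 stood at 17.0 FPKM and above Sox1, and Sox5 at 12.3 FPKM.

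**Figure D1:**
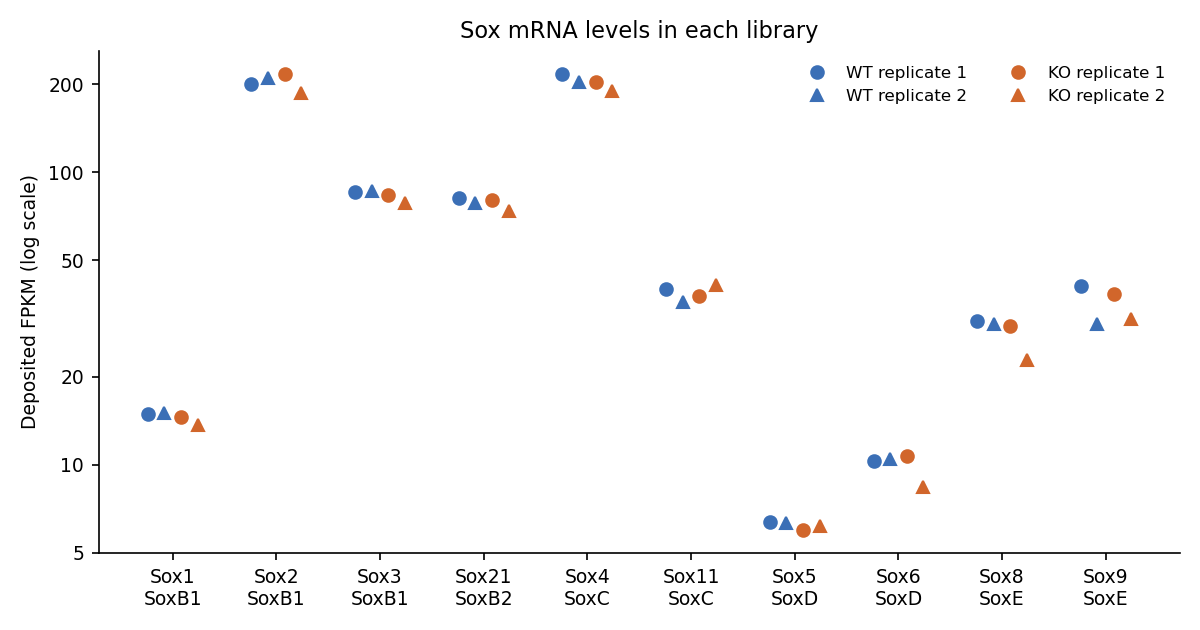
Deposited FPKM (log axis) of the 10 Sox genes, 1 symbol per library, grouped by subgroup; blue is WT, orange is KO, circles are replicate 1 and triangles replicate 2. Sox2 and Sox4 sit between 187 and 217 FPKM and Sox5 between 5.97 and 6.37 FPKM, and the orange triangle is the lowest symbol for 7 of the 10 genes.

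The comparison of KO with WT asks whether loss of LncBAR alters expression of these regulators. None of the 10 genes passed edgeR's quasi-likelihood test at a Benjamini-Hochberg adjusted p of 0.05, with adjusted p-values of 0.813 to 0.974. Over all 12997 genes tested, 9 passed, or 0.0692%: 5 higher in KO (0.0385%) and 4 lower (0.0308%). Of these 9 genes, 4 lay on the X chromosome, and the genotypes also differed in Xist and Y-linked counts. At an unadjusted p under 0.05 in the same edgeR fit the count was 0 of the 10 genes, against 5.92% of all genes. DESeq2 and limma on log2(FPKM + 1), which called 12 and 4 of all genes at an adjusted p of 0.05, called 0 of the 10. In the fit of all 4 libraries, for all 10 genes the 95% interval of the KO over WT ratio lay between 0.714 and 1.21, so that a change of 1.5-fold up or down was outside it. The same held for 78.8% of all tested genes and for 95.6% of the 7114 tested genes of like expression, those with a mean FPKM between those of Sox5 and Sox4. This limit did not hold for Sox8 without KO replicate 1, where its interval ran from 0.636 to 0.853, while the intervals of the other 9 genes stayed within 1.5-fold when any 1 library was left out. The log2 fold change was negative for 9 of the 10 genes, with a median of -0.08, while 49% of all tested genes were negative and their median was 0.00303. In FPKM both KO libraries were below both WT libraries for 4 genes (Sox1, Sox3, Sox5 and Sox8), against 17.7% of all tested genes, and above them for 0 of the 10, against 19% of all.

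**Figure D2:**
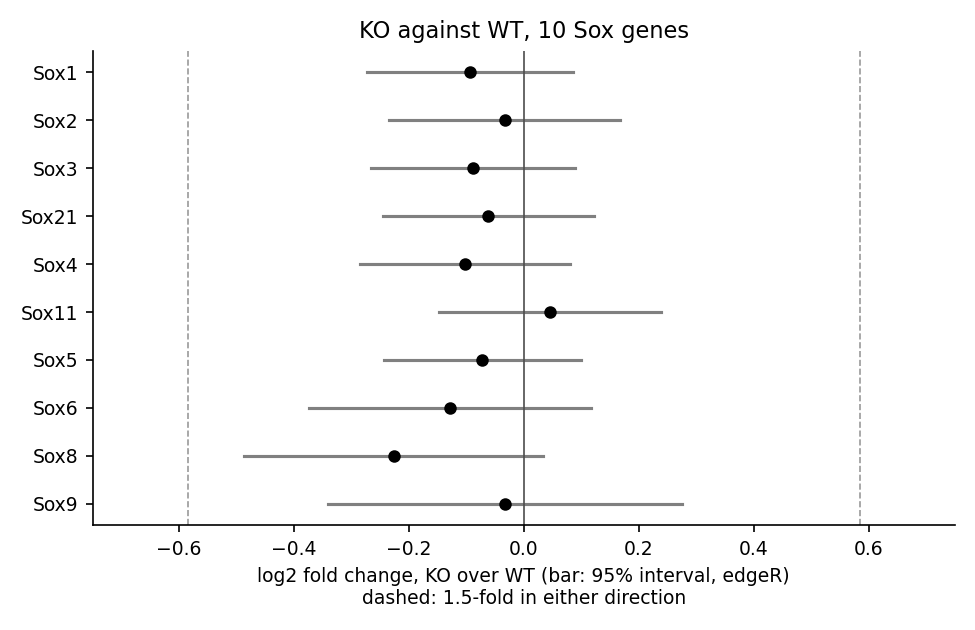
Log2 fold change of KO over WT for the 10 Sox genes (points) with the 95% interval from edgeR's quasi-likelihood fit (bars), 2 libraries per genotype; dashed lines mark a 1.5-fold change. Each bar crosses 0 and none reaches a dashed line; Sox11 is the only point to the right of 0.

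Among the SoxB1 genes, Sox2, the factor most often used to define neural stem cells, read 201 and 209.7 FPKM in the WT libraries and 216 and 187 FPKM in KO. KO replicates 1 and 2 were thus its highest and its lowest library, and the groups overlapped. Its log2 fold change was -0.03 ± 0.09 (SE, edgeR adjusted p = 0.964). Sox3, the X-linked member, read 85.3 and 86.4 FPKM in WT and 83.6 and 78.5 FPKM in KO. Both KO values lay below both WT values, by a log2 fold change of -0.09 ± 0.08 (edgeR adjusted p = 0.868), and the median of 445 tested X genes was 0.0115. Sox1, which is expressed at the lowest level of the 3, read 14.9 and 15.0 FPKM in WT and 14.5 and 13.6 FPKM in KO. Its WT libraries differed by a factor of 1.01 and its KO libraries by 1.07, and the log2 fold change was -0.09 ± 0.08 (edgeR adjusted p = 0.861). The make-up of the SoxB1 pool hardly varied: Sox2 supplied 66.7% to 68.8% of the summed SoxB1 FPKM, Sox3 26.6% to 28.3% and Sox1 4.62% to 4.95%. Sox21, their SoxB2 counterpart, read 81.4 and 78.5 FPKM in WT and 80.2 and 73.7 FPKM in KO. KO replicate 1 lay between the WT libraries, and the log2 fold change was -0.06 ± 0.08 (edgeR adjusted p = 0.917). The ratio of Sox2 to Sox21 was 2.47 to 2.69 across the libraries.

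Sox2 and Sox1 each lie inside a longer noncoding gene on the same strand. Sox2ot, the transcript that spans Sox2, had 299 and 280 counts in WT against 264 and 223 in KO, and none of its annotated exonic bases fell on those of Sox2. Both KO libraries were below both WT libraries, with a log2 fold change of -0.25 ± 0.14 (edgeR adjusted p = 0.830). Sox1ot had 134 and 102 counts in WT against 98 and 86 in KO and lay below the expression filter. It too shared no exonic base with the Sox gene inside it.

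Of the SoxC genes, Sox4 carried the most counts of the family, 18828 and 17008 in WT and 17114 and 16404 in KO. Its FPKM were 217 and 204 in WT and 204 and 190.1 in KO, with WT replicate 1 high and KO replicate 2 low. The log2 fold change was -0.10 ± 0.08 (edgeR adjusted p = 0.852). Sox11 read 39.9 and 35.9 FPKM in WT and 37.7 and 41.0 FPKM in KO. It was the only member whose highest library was KO replicate 2, against 33.4% of all tested genes, its groups overlapped, and the log2 fold change was 0.05 ± 0.09 (edgeR adjusted p = 0.941). The sign turned negative without WT replicate 2 (-0.03) or without KO replicate 2 (-0.01). Sox4 exceeded Sox11 by a factor of 4.64 in KO replicate 2 and of 5.41 to 5.67 in the other libraries. The third SoxC gene, Sox12, outside the 10, read 17.4 and 18.5 FPKM in WT and 19.1 and 18.4 FPKM in KO.

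The SoxD genes diverged in how much their libraries varied. Sox5 read 6.37 and 6.34 FPKM in WT and 5.97 and 6.19 FPKM in KO, the smallest coefficient of variation of the 10 genes (3.01%). Its log2 fold change was -0.07 ± 0.08 (edgeR adjusted p = 0.892). Sox6 read 10.3 and 10.5 FPKM in WT and 10.7 and 8.37 FPKM in KO. KO replicate 1 was its highest library and KO replicate 2 its lowest, a factor of 1.28 apart. Its log2 fold change of -0.13 ± 0.11 (edgeR adjusted p = 0.861) became 0.04 without KO replicate 2 and -0.32 without KO replicate 1.

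The SoxE genes, which act in astrocyte and oligodendrocyte formation, varied most between libraries. Sox8 had the smallest p of the 10 genes. It read 31.0 and 30.3 FPKM in WT and 29.9 and 22.8 FPKM in KO, that is 30.7 ± 0.530 against 26.3 ± 5.05 FPKM (SD, n = 2 each). Both KO libraries were below both WT libraries, though KO replicate 1 was close to the lower WT library. The log2 fold change was -0.23 ± 0.12 (edgeR adjusted p = 0.813), and it was -0.04 without KO replicate 2 and -0.44 without KO replicate 1 (edgeR adjusted p = 0.152). Sox9 read 40.8 and 30.3 FPKM in WT and 38.4 and 31.5 FPKM in KO. Replicate 1 was the higher library in both genotypes, the WT libraries were a factor of 1.35 apart, and the log2 fold change was -0.03 ± 0.14 (edgeR adjusted p = 0.974). It turned positive without WT replicate 1 (0.20) and without KO replicate 2 (0.11). Sox10, the third SoxE gene and a marker of the oligodendrocyte lineage, is not among the 10. It read 12.1 and 9.97 FPKM in WT and 10.9 and 6.59 FPKM in KO, with a log2 fold change of -0.34 ± 0.20 (edgeR adjusted p = 0.830) that was -0.01 without KO replicate 2.

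KO replicate 2 thus stood low for most of the family. It was the lowest library in FPKM for 7 of the 10 genes, against 28.1% of all tested genes, the exceptions being Sox5, Sox9 and Sox11. With counts scaled to the library total it was lowest for 7 of the 10 as well, against 34.6% of all. On the log2 scale of CPM (counts scaled to the TMM-normalized library size), the 10 genes deviated from their mean over the libraries by a median of 0.06 and 0.04 in WT, of 0.02 in KO replicate 1 and of -0.10 in KO replicate 2. For all tested genes these medians were within 0.00280 of 0, and 90% of them deviated in KO replicate 2 by -0.29 to 0.25, which takes in each member except Sox8 (-0.32). Without KO replicate 2 the log2 fold change was negative for 6 of the 10 genes, with a median of -0.02.

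**Figure D3:**
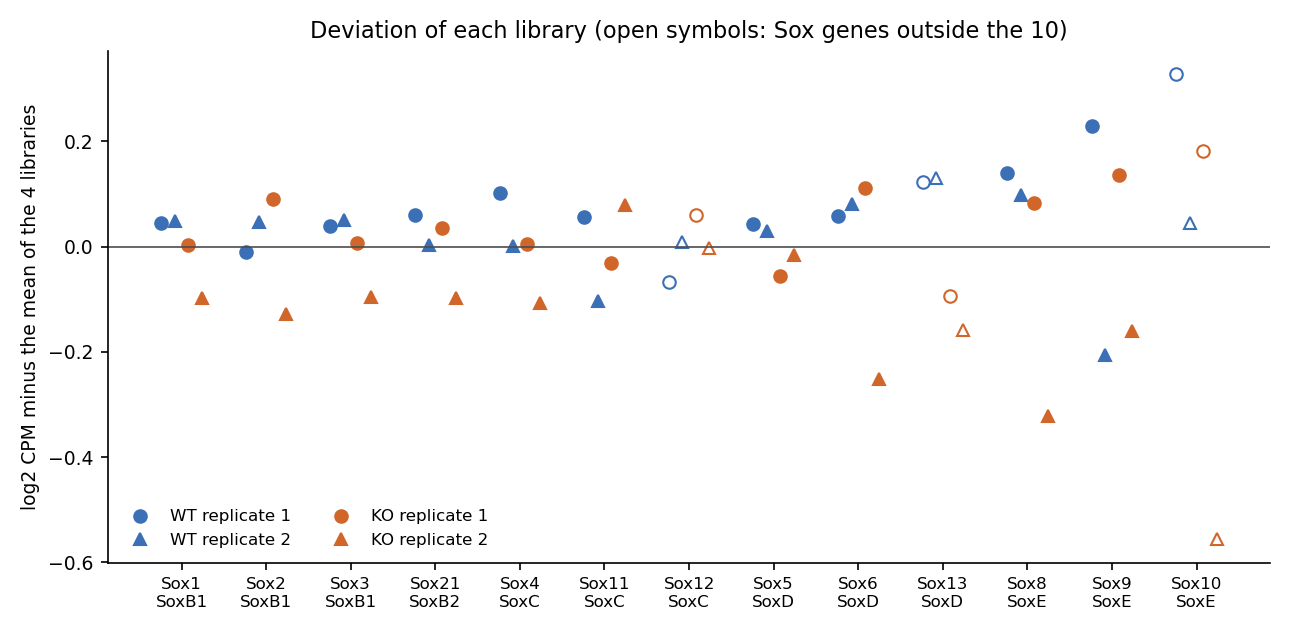
Log2 CPM of each library minus the mean of the 4 libraries for 13 Sox genes; filled symbols are the 10 genes described and open symbols the other 3 that passed the expression filter, colours and shapes as for the levels. KO replicate 2 (orange triangles) lies lowest for Sox6 (-0.25), Sox8 (-0.32) and Sox10 (-0.56), while Sox9 is lowest in WT replicate 2 (-0.21).

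Markers of glial cells moved with this library. All 5 astrocyte markers had their lowest FPKM in KO replicate 2, where their sum was 56.2 FPKM against 70.2 to 82.0 FPKM in the other libraries. Of the oligodendrocyte lineage markers, Pdgfra, Cspg4 and Mbp were lowest in KO replicate 2, whereas Olig1 and Olig2 were highest there. Pdgfra, for example, read 7.61, 7.24 and 7.82 FPKM in the other libraries and 5.50 FPKM in KO replicate 2. The part of these cell types in the Sox values was not tested. In bulk RNA, fewer cells of a type and less RNA per cell cannot be told apart.

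Summed over all Sox genes, the WT libraries held 765 and 742 FPKM and the KO libraries 756 and 683 FPKM, of which the 10 genes made up 95.2% to 95.5%. SoxB1 genes supplied 39.4% to 42.0% of this sum, SoxC genes 34.5% to 36.5%, Sox21 10.6% to 10.8%, SoxE genes 8.90% to 11.0% and SoxD genes 2.82% to 3.04%. The SoxE share averaged 10.2 ± 1.03% in WT and 9.69 ± 1.11% in KO (SD, n = 2 each), a difference smaller than the spread within either genotype.

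**Figure D4:**
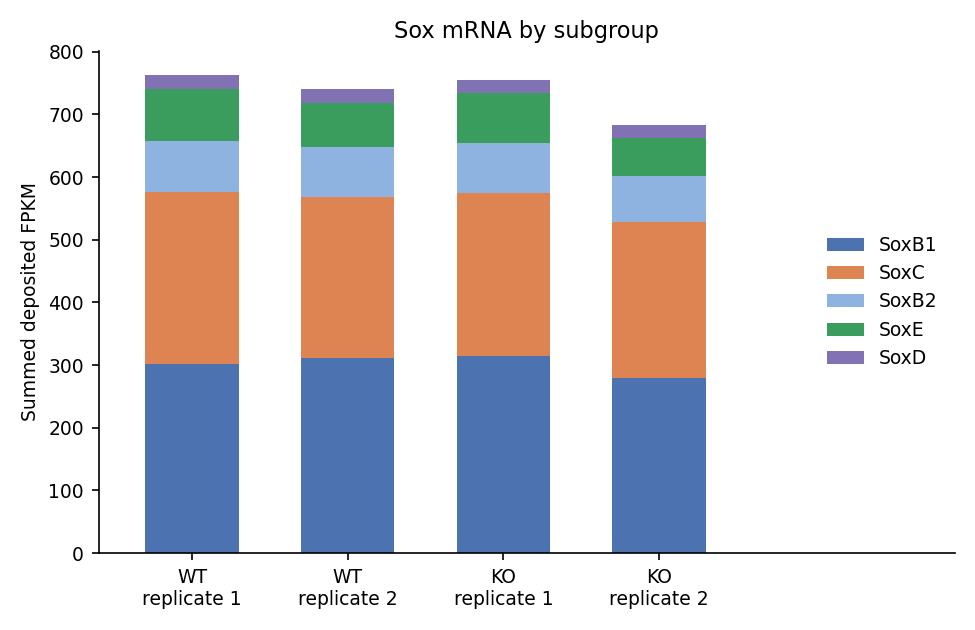
Summed deposited FPKM of the Sox genes in each library, stacked by subgroup (SoxB1, SoxC, SoxB2, SoxE and SoxD; the SoxF, SoxG and SoxH genes are too low to be seen and are left out). The stack of KO replicate 2 is the shortest at 683 FPKM, and the order of the layers by size is kept from library to library except between SoxB2 and SoxE.

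The 9 other Sox genes divided sharply by level. Sox12, Sox10 and Sox13 passed a mean of 1 FPKM, at 18.4, 9.90 and 5.27 FPKM. The SoxF genes Sox7 and Sox18, which act in blood vessels, together with Sox15 and Sox30, had means of 0.129 to 0.438 FPKM. Sox17, a gene of endoderm and vessels, and Sox14 had 0 counts in all 4 libraries. Sox13, a SoxD gene, read 5.70 and 5.75 FPKM in WT and 4.91 and 4.73 FPKM in KO. Its groups did not overlap and its log2 fold change was -0.25 ± 0.11 (unadjusted p = 0.0368), but adjustment over the 12997 genes left it above the threshold (edgeR adjusted p = 0.811). Unlike that of Sox8, its difference was similar without KO replicate 2 (-0.22).

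The library kit kept no strand, so overlap with exons on the other strand bears on 4 of the 10 genes. The widest was at Sox4 on chromosome 13, where a noncoding gene annotated on the plus strand in GENCODE M21, Gm26735, has an exon from 28949056 to 28951671 that covers 54.6% of the Sox4 exonic bases. The deposited table held no entry that overlaps Sox4 by coordinates, so no level of Gm26735 at this place was available. At Sox21 the exons of Gm4675 cover 18.8% of the gene (chromosome 14, 118236232 to 118236944), and Gm4675 had 134 to 158 counts per library, 2.84% of those of Sox21 in all. At Sox8 the exons of 2810468N07Rik cover its first 329 bases (chromosome 17, 25570358 to 25570686), 10.6% of its exonic length. Its counts were 869 and 750 in WT against 868 and 736 in KO, 51.1% of the Sox8 total, and its log2 fold change was -0.02 ± 0.11 (edgeR adjusted p = 0.982). Sox5os1 covers 9.25% of the Sox5 exons and had 0 counts in each library. The sources used here do not give how reads in these shared exons were assigned, so the levels of Sox4, Sox5, Sox8 and Sox21 are uncertain to that extent.

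**Figure D5:**
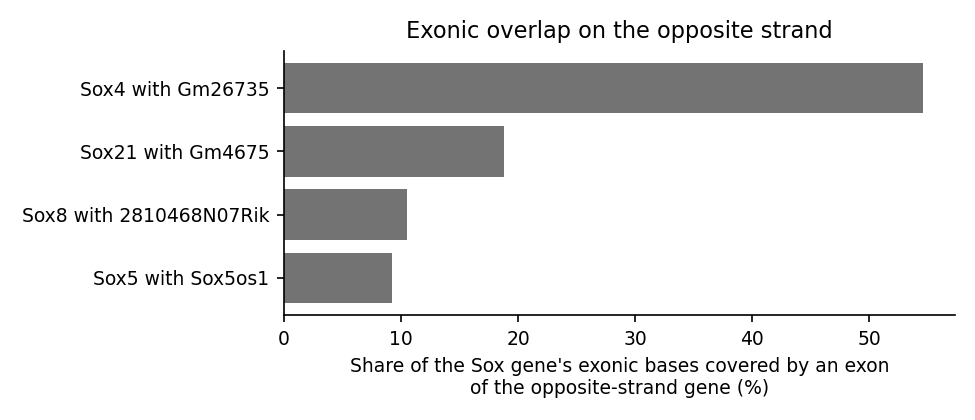
Share of a Sox gene's exonic bases (horizontal axis, percent) that is also covered by an exon of a gene on the opposite strand in GENCODE M21. The bar is 54.6% for Sox4 with Gm26735 and between 9.25% and 18.8% for the other 3 genes.

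Genes known as partners or targets of Sox proteins showed no called change either. Of 32 such genes 25 reached the expression filter. In edgeR 0 of the 25 passed in either direction (smallest adjusted p = 0.811), against 0.0692% of all tested genes. The log2 fold change was negative for 18 of the 25, against 49% of all tested genes, and their median was -0.07. KO replicate 2 was the lowest library in FPKM for 14 of the 25, against 28.1% of all. At an unadjusted p under 0.05 there were 3 of the 25, against 5.92% of all tested genes: the POU-domain gene Pou3f4 (-0.21 ± 0.09), the chromatin remodeller gene Chd7 (-0.22 ± 0.10), whose product binds Sox2, and Pax6 (-0.21 ± 0.09), a partner of Sox2 in eye development, which was named after its values were seen. Pou3f4 read 16.4 and 16.3 FPKM in WT and 13.9 and 14.5 FPKM in KO, with no overlap. Chd7 read 22.1 and 20.4 FPKM in WT and 19.9 and 16.6 FPKM in KO, again without overlap and lowest in KO replicate 2.

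Pou3f2 and Pou3f3 stood in the lists of both SoxB1 and SoxC. The list for SoxB1 had 11 of 12 genes tested, 4 of them positive and 7 negative. Its most abundant genes, Fabp7 (0.17 ± 0.08) and the intermediate filament gene Vim (0.03 ± 0.08), had positive log2 fold changes. The list for SoxC had 5 of 7 genes tested. They included the neuronal tubulin gene Tubb3, at 6.40 and 5.50 FPKM in WT and 8.59 and 6.10 FPKM in KO (log2 fold change 0.30 ± 0.19), Pou3f2 (-0.14 ± 0.08), Pou3f3 (-0.04 ± 0.08) and Map2 (-0.06 ± 0.08). The neuroblast gene Dcx stayed under the filter at 0.716 to 1.16 FPKM. The list for SoxD had 4 of 5 genes tested, all negative, with the corepressor genes Ctbp1 and Ctbp2 at -0.01 ± 0.08 and -0.07 ± 0.08. The list for SoxE had 7 of 10 tested, with a median of -0.08. Of these Mmd2, induced by Sox9 and Nfia in glial precursors, read 43.9 and 34.9 FPKM in WT and 44.6 and 35.7 FPKM in KO. Its log2 fold change was 0.02 ± 0.13. Zcchc24 (-0.08 ± 0.08), Fgfr3 (-0.11 ± 0.09) and Pdgfra (-0.16 ± 0.14) had unadjusted p-values of 0.246 to 0.312. The cartilage targets of Sox9 were nearly silent, with Col2a1 at 0.253 to 0.686 FPKM, Acan at 0.0595 to 0.185 FPKM and Hapln1 at 0 counts.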

How the data were processed

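Polyadenylated RNA of 4 neurosphere libraries was sequenced as 150-base read pairs with a kit that keeps no strand, per the labels' protocols. The submitters' processing notes name the mm10 build and, in no stated order, Cufflinks 2.2.1, TopHat2 2.1.1 and cutadapt 1.16. Which program made the counts is not given there or in the labels. The authors deposited whole-number counts per gene and library, per the file headers, and FPKM values made from the counts, the gene length and a library size. Their table also holds their comparison of KO with WT, per the file headers, as mean signal per genotype, log2 fold change, p-value and adjusted p-value; no value of it is printed here. Member coordinates and exonic lengths in the table were the same as in GENCODE M21 for all 10 genes.

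The main test was edgeR's (4.0.16, under R 4.3.3) quasi-likelihood F test of genotype on TMM-scaled counts. It took in the 12997 of 55599 entries whose FPKM averaged 1 or more, over which p-values were adjusted by Benjamini-Hochberg, with a threshold of 0.05. The SE is the log2 fold change divided by the square root of F, and intervals are at 95%. The fit had 2 residual degrees of freedom and a median of 8.39 prior ones. With 2 libraries per genotype the smallest two-sided p of an exact permutation test is 0.333, so none was used. No library was a copy of another: pairs gave a chi-square of 7.68 to 17.7 per degree of freedom. The steps were tested on simulated data. Alternatives were RLE and upper-quartile scaling, no filter, a mean FPKM of at least 5, filterByExpr, DESeq2 1.42.0, limma 3.58.1 on log2(FPKM + 1) and log2(FPKM + 0.1), the replicate number as a block and leaving out each library, and for the levels TPM, CPM and the longest transcript length. All members are named; of each list of partners and targets, the genes past the threshold were to be named, or else the 2 of smallest p and the 2 of highest mean FPKM; a few genes of the lists are not reported here. The members and lists were chosen with earlier results of these data known. Entries without a gene name held 13737 to 14976 counts per library.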

Additional observations from a re-analysis of the deposited data

How the results depend on the processing

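No alternative called any of the 10 Sox genes, over 13 alternatives each, and 123 of their 130 fold changes kept their sign. The 7 that turned came from leaving out 1 library. The log2 fold change then ranged from -0.15 to 0.072 for Sox2 and from -0.32 to 0.042 for Sox6, each positive only without KO replicate 2. It ranged from -0.13 to 0.00299 for Sox21, positive only without KO replicate 2. It ranged from -0.23 to 0.20 for Sox9, positive without WT replicate 1 (0.20) or KO replicate 2 (0.11), and from -0.031 to 0.13 for Sox11, negative without WT replicate 2 (-0.031) or KO replicate 2 (-0.011). The number of all genes called was 9, against 31 without a filter, 4 in limma on log2(FPKM + 1), 3 on log2(FPKM + 0.1) and 15 to 86 when 1 library was left out. Among the latter it was 86 and 51 without WT replicate 1 or 2, and 22 and 15 without KO replicate 1 or 2. These fits take the genotype with 1 library to scatter as the other does, and the cause of the higher counts was not tested. With the replicate number as a block 24 genes passed, and Sox8 had the smallest adjusted p of the 10 genes (edgeR adjusted p = 0.287). Deviations of same-numbered libraries correlated at 0.0903, and nothing in the labels pairs them. In the order of mean levels, Sox2 and Sox4 traded places without WT replicate 1 or KO replicate 2. The order was unchanged with TPM. With counts scaled to the library total and not divided by gene length, 7 of the 10 genes stood at another place. Only Sox4, Sox2 and Sox21 kept theirs, so the order of the others depends on the division by length.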
